A study of Mus musculus with 24 samples.

Results

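ADAM and ADAMTS proteases, the ADAMTS-like proteins and the tissue inhibitors of metalloproteinases (TIMPs) were followed in digit tips of adult mice after amputation. The members are all genes of the deposited table whose name is Adam, Adamts, Adamtsl or Timp followed by a number. There were 36 of them among 15055 genes: 12 ADAM, 16 ADAMTS, 5 ADAMTSL and 3 TIMP genes. Timp4 was not analysed here. The mice were of the inbred strain C57BL/6 and 10-12 weeks old, and each library came from hind limb digit tip in which bone, cartilage, marrow, dermis and epidermis were collected as a whole. The 6 groups were distal amputation at 12, 14 and 21 days and proximal amputation at 12, 14 and 21 days, with 4 libraries each and 24 in all, made from total RNA depleted of ribosomal RNA. Every group was amputated and no unamputated digit was used here. In the adult mouse a distal amputation of the digit tip is known to be followed by regrowth, and a proximal one is not. No label ties a library to an animal, so the p-values measure the spread between libraries, which may be technical.

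The deposited values are whole numbers that had been normalised, so the sequencing depth behind them is unknown. Upper quartiles of the 24 libraries lay between 902.5 and 930.5. Proximal 12 day replicate 1 stood apart from its group on the second principal component, at -24.96 against -43.9 to -46.9, and results whose call or size turns on it are given with and without it. Differences are on the log2(value + 1) scale with their standard error, from limma over all 24 libraries, and a gene was called at a Benjamini-Hochberg adjusted p under 0.05 over all 15055 genes. In a bulk digit tip, fewer cells of a type and less RNA per cell cannot be told apart.

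ADAMs are membrane proteins that cut the extracellular part off other membrane proteins, a step called shedding, which releases growth factors, cytokines and receptors. ADAMTS enzymes are secreted relatives that act on the matrix: some trim procollagens so that fibrils can form, others cut aggrecan and versican, and others act on cartilage oligomeric matrix protein or on the fibrillin network. ADAMTS-like proteins have the binding domains of the family without a protease domain. TIMPs block matrix metalloproteinases and, with different preference, ADAM and ADAMTS enzymes.

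Promoters are shown for the pair of members that were higher after distal amputation at 12 days, Timp1 and Adam8, and for 2 matrix enzymes that were lower there, Adamts12 and Adamts2. The windows end before the earlier of the RefSeq and GENCODE starts of the gene. For Adamts12 that is the RefSeq start, which lies upstream of the GENCODE start at 11064790. The windows come from RefSeq on build GRCm38.p6, which has the coordinates of mm10: chrX:20869916-20870165 on the plus strand for Timp1, chr7:139992563-139992812 on the minus strand for Adam8, chr15:11064523-11064772 on the plus strand for Adamts12 and chr11:50601835-50602083 on the plus strand for Adamts2. Capitals mark the GC box GGGCGG, searched on both strands.
Timp1: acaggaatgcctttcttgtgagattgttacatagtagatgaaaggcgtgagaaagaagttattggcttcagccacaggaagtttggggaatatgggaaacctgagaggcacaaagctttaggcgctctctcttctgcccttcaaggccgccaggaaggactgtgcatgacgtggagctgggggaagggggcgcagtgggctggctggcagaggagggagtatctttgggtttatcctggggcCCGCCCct
Adam8: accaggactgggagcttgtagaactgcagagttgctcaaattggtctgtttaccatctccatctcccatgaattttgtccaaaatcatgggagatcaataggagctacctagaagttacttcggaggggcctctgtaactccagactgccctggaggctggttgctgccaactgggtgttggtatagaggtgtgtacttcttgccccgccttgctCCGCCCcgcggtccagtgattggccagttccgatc
Adamts12: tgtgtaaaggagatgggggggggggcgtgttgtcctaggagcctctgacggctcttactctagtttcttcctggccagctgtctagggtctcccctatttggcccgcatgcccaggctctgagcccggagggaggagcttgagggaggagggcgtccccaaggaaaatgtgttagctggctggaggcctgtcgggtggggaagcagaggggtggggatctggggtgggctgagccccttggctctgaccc
Adamts2: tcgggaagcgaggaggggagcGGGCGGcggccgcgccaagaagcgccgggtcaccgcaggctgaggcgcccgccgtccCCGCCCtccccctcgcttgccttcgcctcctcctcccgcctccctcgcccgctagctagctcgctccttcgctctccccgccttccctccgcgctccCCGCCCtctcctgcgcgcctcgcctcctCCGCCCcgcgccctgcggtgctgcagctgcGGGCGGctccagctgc
The GC box matched 1 time in the windows of Timp1 and Adam8, 5 times in that of Adamts2 and 0 times in that of Adamts12. Of 24 members with a RefSeq window, 18 held it in the 250 bases before the start, where 32.7% of 32851 such windows in the genome did. The AP-1 motif TGANTCA was in a window of 1 of the 24 members, one of the starts of Adam19, against 6.75% of all windows. The motif TATAAA was in windows of 2 members, Adamts1 and Adamtsl2, against 12.4% of all windows. Neither AP-1 spelling, TGANTCA nor TGAGTAA, was in the window of Timp1. TGAGTAA began at base 27 of its transcript, outside the window. These matches describe letters only, and none says that a factor binds.

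Per kilobase of gene length and averaged over the 24 libraries, the inhibitor genes and a few broadly expressed enzymes stood highest. Timp2 had a level of 1393 per kb, above 97.5% of all genes, followed by Timp1 at 683 per kb. The order depended on the group: Timp1 was highest in the distal 12 day group, at 1394 per kb against 1041 for Timp2. In the proximal 21 day group it was at 203 per kb, below Timp2 (843 per kb), Adamts1 (359), Adam9 (325), Adam15 (317) and Adam10 (290). The shedding enzyme genes Adam9, Adam15 and Adam10 stood at 479, 371 and 296 per kb, and the procollagen-trimming Adamts2 at 317 per kb. Adamts1 was at 280 per kb, Timp3 at 239 per kb and Adam17 at 159 per kb. Lowest were Adam11 at 3.05 per kb and Adamts20 at 2.01 per kb, which ranked 36th of the 36.

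Between amputation levels, most called members were lower after distal amputation at 12 days, few differed at 14 days, and at 21 days calls went both ways. At 12 days 14 of the 36 members were called, 2 higher and 12 lower, where 20.3% of all genes were called, 9.25% higher and 11% lower. Their count was 9 without proximal 12 day replicate 3, when 15.6% of all genes were called. The median over the 36 was -0.33 against -0.03 over all genes. For 15 members the 2 groups did not overlap, against 23% of all genes. At 14 days 3 members were called, all 3 higher, against 5.39% of all genes, 3.06% higher and 2.32% lower, and the median was 0.11 against 0.00. The groups of 4 members did not overlap, against 11.3% of all genes. The count of 3 was 0 without distal 14 day replicate 2 and 1 without distal replicate 3 or 4 or without proximal replicate 1, 2 or 3. Over all genes the share called was then 1.84% without distal replicate 2, and 2.01% and 4.47% without distal replicates 3 and 4. It was 2.14% to 2.64% without those proximal replicates. At 21 days 15 members were called, 6 higher and 9 lower, against 17.6% of all genes, 8.22% higher and 9.43% lower, and the median was -0.01 against -0.05. Scaling by table totals, which moved the median of all genes at 21 days to -0.19, gave 4 higher and 10 lower. With that scaling 27.8% of all genes were called. The groups of 10 members did not overlap on day 21, against 18.8% of all genes. Over the 3 days 20 members were called on at least 1 day, 12 on at least 2 and 0 on all 3. The matching shares of all genes were not computed, so these 3 counts have no background to be read against.

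With time, member transcripts rose from 12 to 14 days after distal amputation and fell from 14 to 21 days at both levels. In the distal groups 13 of 36 rose and 2 fell from 12 to 14 days, where 19.4% of all genes were called, 11.2% up and 8.12% down, with a median of 0.45 against 0.01 over all genes. The count of 15 called was 9 without distal 14 day replicate 2, when 14.7% of all genes were called. For 12 members the 2 groups did not overlap, against 20.7% of all genes. From 14 to 21 days 22 distal members fell and 0 rose, where 34.8% of all genes were called, 21.5% down and 13.3% up, with a median of -0.84 against -0.04. For 20 members the groups did not overlap, against 31% of all genes. In a fit of these groups alone 2 rose, and with median-ratio scaling 1 did, when 31.4% and 36.5% of all genes were called. In the proximal groups 1 member rose and 1 fell from 12 to 14 days, where 15.2% of all genes were called, 7.35% up and 7.84% down. There 3 members had groups that did not overlap, against 18.1% of all genes. From 14 to 21 days 19 proximal members fell and 2 rose, where 28.7% of all genes were called, 16.3% down and 12.5% up, with a median of -0.55 against -0.00. The rises were of Adam17 (0.26) and Adamts20 (0.94). The Adam17 call ended in a fit of the 2 groups alone, and the Adamts20 call in 8 of 14 alternatives. Groups did not overlap for 20 members, against 25.4% of all genes. From 12 to 21 days 8 distal members fell and 2 rose, where 23.8% of all genes were called, 15% down and 8.81% up. In the same span 18 proximal members fell and 1 rose, where 29% of all genes were called, 17% down and 12% up. The groups did not overlap for 10 members distally and 16 proximally, against 23.9% and 27.7% of all genes. The change from 12 to 21 days itself differed between levels for 9 members, 8 more positive and 1 more negative after distal amputation, against 14.8% of all genes, 7.42% each way. With table totals the split was 6 and 2, and 13.1% of all genes were called. Time comparisons of a level share libraries, so their counts are not independent of each other. In all, 33 members were called in at least 1 of the 10 comparisons, and Timp3, Adam1a and Adam11 in none. The share of all genes called in at least 1 of them was not computed.

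**Figure D1:**
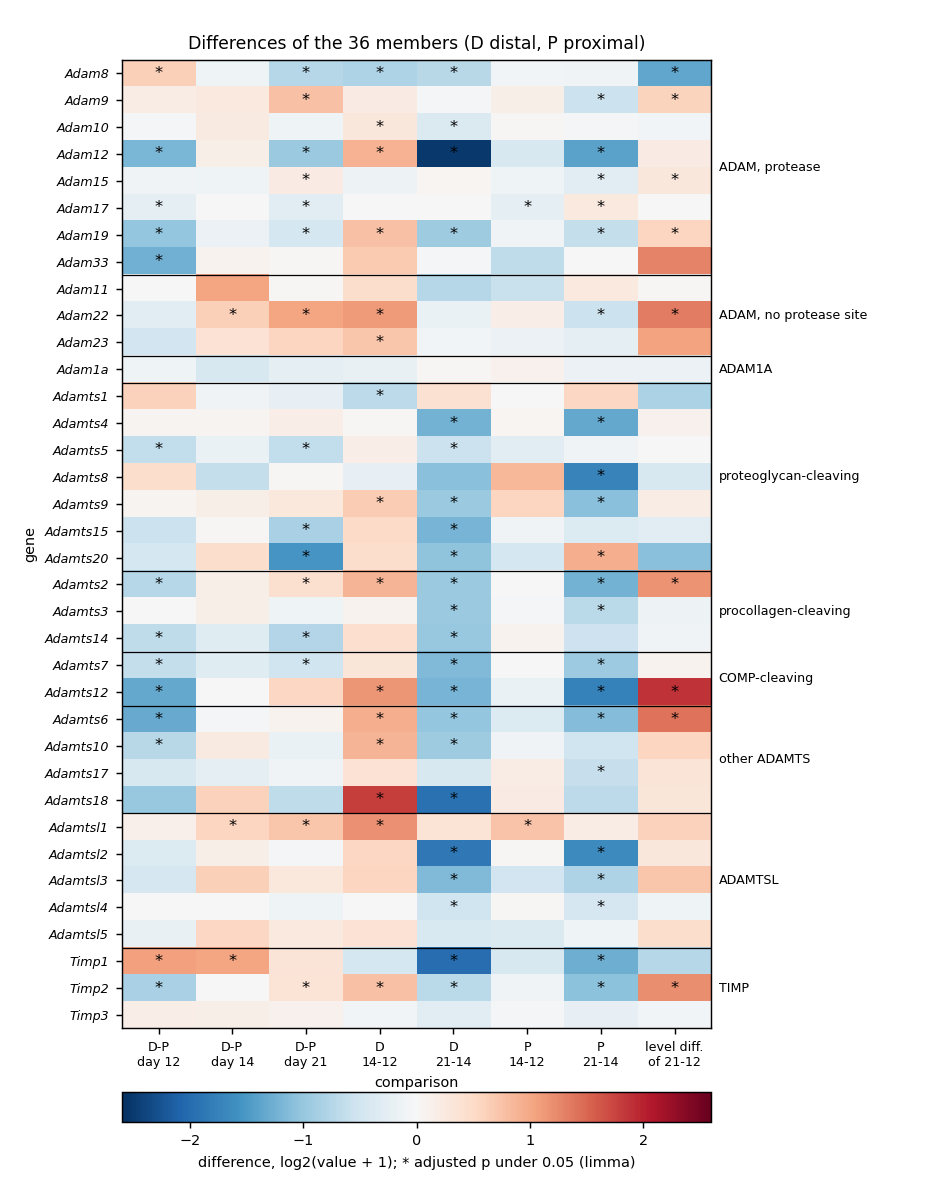
Log2 differences of the 36 members (rows, grouped by role) in 8 comparisons (columns; D distal, P proximal, with the days compared). Colour runs from blue (lower) to red (higher) and a star marks an adjusted p under 0.05 in limma: the D 21-14 column holds 22 falls and 0 rises, and the D-P day 14 column holds 3 stars.

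Of the 3 TIMP genes, Timp1 was higher and Timp2 lower distally on day 12, and Timp3 was not called. Timp1, an inhibitor known to be induced in injured tissue (chromosome X, 20870166 to 20874735, plus strand), was at 1508, 1036, 1440 and 966 in the distal 12 day libraries and at 1040, 430, 424 and 594 in the proximal ones. The 12 day groups overlapped only because proximal replicate 1, the library that stood apart, was at 1040. The difference was 1.07 ± 0.29 (adjusted p = 0.0116), and 1.35 without that library. At 14 days Timp1 was at 529, 1250, 1024 and 887 after distal and 427, 301, 455 and 594 after proximal amputation, with the ranges overlapping. That difference of 1.03 ± 0.29 was called (adjusted p = 0.0406), but the call ended without distal replicate 2 (0.86), 3 (0.95) or 4 (1.02), without proximal replicate 1 (1.02), 2 (0.85) or 3 (1.05), and in a fit of the 2 groups alone (adjusted p = 0.0769). By 21 days the values were 171, 302, 172 and 282 distally and 161, 222, 144 and 193 proximally, and the difference of 0.33 ± 0.29 was not called. Timp1 thus stood lowest on day 21 at both levels, having fallen from 12 to 21 days by 2.43 on the log2 scale distally (adjusted p = 6.56e-06) and by 1.70 proximally (adjusted p = 0.000137). Timp1 lies within the gene Syn1 on the opposite strand, and the sources used here do not state the strand used in counting. Syn1 itself stood at 8 to 36 in the 24 libraries.

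Timp2, an inhibitor that also helps to activate pro-MMP2 (chromosome 11, 118301069 to 118355740, minus strand), showed the reverse order of levels at 12 days. It stood at 4347, 3894, 4303 and 3673 in the distal libraries and at 6962, 8262, 7680 and 6298 in the proximal ones, with no overlap. The difference was -0.84 ± 0.09 (adjusted p = 2.04e-06). At 14 days distal Timp2 was at 6839, 7126, 6901 and 6485 and proximal at 6714, 6392, 8173 and 6256, a difference of -0.00 ± 0.09 (adjusted p = 0.993). Distal Timp2 had risen by day 14 into the range that proximal Timp2 already held on day 12. At 21 days it was at 4173, 4196, 4412 and 3991 distally and lower proximally, at 3690, 2906, 3070 and 3472, again with no overlap. The 21 day difference of 0.36 ± 0.09 (adjusted p = 0.0114) was not called with table totals (0.21). From 12 to 21 days Timp2 fell by 1.15 proximally and differed by 0.05 ± 0.09 distally, and these changes differed by 1.20 ± 0.13 (adjusted p = 7.11e-06).

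Timp3, the TIMP that blocks ADAM17 and aggrecan-cleaving ADAMTS enzymes (chromosome 10, 86300372 to 86349506, plus strand), was not called in any of the 10 comparisons. Distal libraries ranged from 1308 to 3261 at 12 days, 1723 to 2435 at 14 days and 1480 to 2055 at 21 days. Proximal ones ranged from 1748 to 2524, 1501 to 2396 and 1349 to 1735, and the levels overlapped on each day. The 12 day distal values (2939, 1851, 1308 and 3261) were the most spread, with an SD of 915. Of the exon bases of Timp3, 21.3% are shared with Syn3 on the opposite strand, a gene at 7 to 30 in these libraries.

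**Figure D2:**
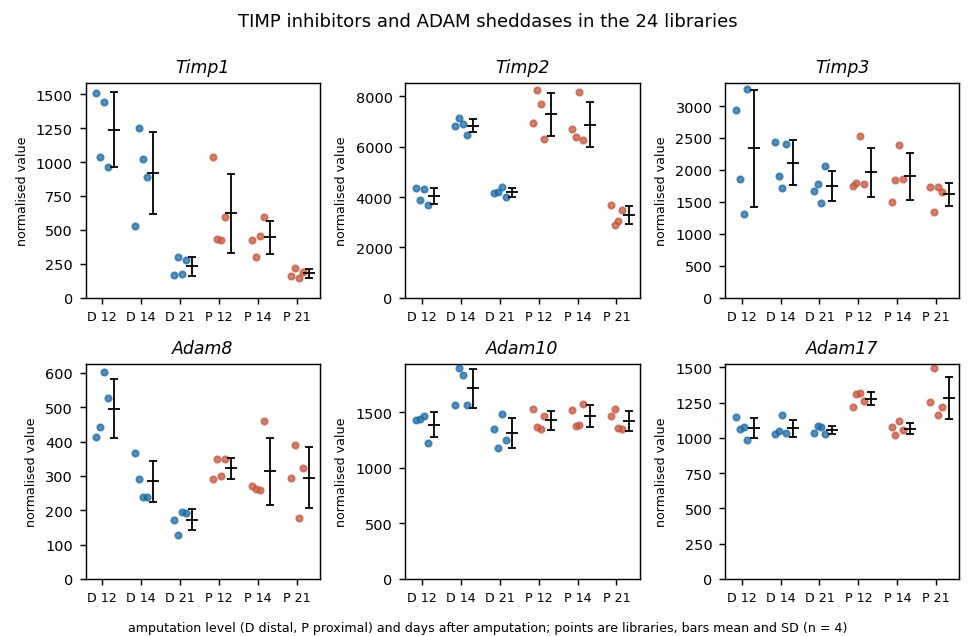
Normalised values of Timp1, Timp2, Timp3, Adam8, Adam10 and Adam17 in each of the 24 libraries (points; D distal in blue, P proximal in red, by day), with the mean and SD of 4 libraries. Timp1 is high on days 12 and 14 and low on day 21, Timp2 on day 12 is at 3673 to 4347 distally and 6298 to 8262 proximally, and Adam8 falls from day to day distally.

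Among the 8 ADAM genes with a working protease, 1 was higher and 4 were lower distally at 12 days, 0 differed at 14 days, and 2 were higher and 4 lower at 21 days. Over all genes 9.25% were higher and 11% lower at 12 days, and 8.22% higher and 9.43% lower at 21 days. At 14 days 5.39% of all genes were called. Adam8 encodes a sheddase known from myeloid cells and osteoclasts (chromosome 7, 139978932 to 139992562, minus strand). It stood at 412, 442, 602 and 526 in the distal 12 day libraries and at 290, 348, 301 and 348 in the proximal ones, without overlap. The difference was 0.61 ± 0.22 (adjusted p = 0.048), close to the threshold. Leaving out distal replicate 2 (0.66), 3 (0.51) or 4 (0.58), any of the 4 proximal replicates (0.56 to 0.65), or scaling by table totals (0.56) ended this call. Distal Adam8 was at 366, 292, 239 and 238 on day 14 and at 172, 128, 196 and 193 on day 21. It fell on each step, by 0.81 (adjusted p = 0.0108) and by 0.71 (adjusted p = 0.0128) on the log2 scale, the latter call ending without distal 14 day replicate 1 (-0.58) or distal 21 day replicate 2 (-0.58). Proximal Adam8 was at 272, 262, 259 and 460 on day 14 and at 293, 389, 176 and 323 on day 21, and no proximal step was called. At 21 days the level difference was -0.74 ± 0.22 (adjusted p = 0.0219), with a proximal library at 176 inside the distal range, and it was not called without distal replicate 2 (-0.60), proximal replicate 2 (-0.59) or proximal replicate 4 (-0.67), or in a fit of the 2 groups alone (adjusted p = 0.0635). The 12 to 21 day change of Adam8 differed between levels by -1.35 ± 0.30 (adjusted p = 0.00441), the 1 negative call of that comparison.

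Markers of myeloid cells were measured in the same libraries. The 3 measured neutrophil markers (S100a8, S100a9 and Cxcr2; Mpo was not analysed here) summed to 1167 to 2671 in the distal 12 day libraries and 197 to 472 in the proximal ones, and 0 of 3 were called. On day 14 they summed to 158 to 13944 distally and 488 to 1549 proximally, and Cxcr2 was lower distally. They summed to 140 to 399 distally and 316 to 6025 proximally at 21 days, where Cxcr2 was again lower distally. From 14 to 21 days distally 1 of the 3 rose and 2 fell, so they did not move together. Osteoclast markers (Acp5, Ctsk and Mmp9) summed to 14883 to 49777 distally and 6865 to 55864 proximally at 12 days, with 0 of 3 called, and all 3 fell distally from 12 to 21 days. Macrophage markers summed to 1612 to 2834 and 1893 to 3617 at 12 days, with 1 of 4, Adgre1, called lower distally. Distally 3 of the 4 (Adgre1, Csf1r and Cd68) fell from 14 to 21 days, and 2 (Csf1r and Cd68) from 12 to 21 days. Proximally 3 of the 4 (Adgre1, Csf1r and Cd68) fell from 12 to 21 days, and 0 were called from 14 to 21 days. None of these markers was at 0 in any library, and their part in the Adam8 result was not tested.

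Adam17, the sheddase of TNF and of several EGF receptor ligands (chromosome 12, 21323509 to 21373632, minus strand), varied over a narrow range. Its distal values were 1151, 1066, 1078 and 984 on day 12, 1027, 1046, 1161 and 1035 on day 14, and 1038, 1086, 1076 and 1029 on day 21. The proximal values were 1220, 1311, 1320 and 1261, then 1075, 1020, 1117 and 1054, then 1257, 1498, 1160 and 1221. Distal Adam17 stayed between 984 and 1161 throughout, while the proximal groups of days 12 and 21 lay wholly above the distal groups of those days. The differences were -0.26 ± 0.07 on day 12 (adjusted p = 0.00924) and -0.27 ± 0.07 on day 21 (adjusted p = 0.00799). The day 21 call ended in a fit of the 2 groups alone (adjusted p = 0.0559). Adam10, which starts Notch receptor cleavage (chromosome 9, 70678997 to 70780229, plus strand), was not called between levels on any day, except on day 21 with table totals (-0.26, adjusted p = 0.0436, against -0.12). In distal libraries it stood at 1431, 1439, 1467 and 1218 on day 12, at 1565, 1896, 1836 and 1567 on day 14, and at 1349, 1174, 1482 and 1252 on day 21. All 4 distal day 14 values were above those of days 12 and 21. Adam10 rose by 0.30 ± 0.08 from 12 to 14 days (adjusted p = 0.0129), a call that ended without distal 12 day replicate 4 (0.24) or distal 14 day replicate 2 (0.25), and then fell by 0.38 (adjusted p = 0.00103). Proximal Adam10 was between 1344 and 1575 in all 12 libraries, with no step called.

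Adam12 and Adam19, members expressed in mesenchyme, were lower distally on days 12 and 21. Adam12 (chromosome 7, 133883199 to 134232146, minus strand) was at 339, 518, 560 and 308 in the distal 12 day libraries and at 1343, 650, 827 and 1115 in the proximal ones, without overlap, a difference of -1.18 ± 0.26 (adjusted p = 0.00242). Without proximal replicate 1 the difference was -1.01 (adjusted p = 0.0114). On day 14 the distal values were 680, 974, 896 and 639 and the proximal ones 705, 778, 687 and 675, and the difference of 0.14 ± 0.26 was not called. On day 21 they were 201, 132, 94 and 141 against 294, 416, 225 and 192. The day 21 ranges overlapped, and the difference of -0.97 ± 0.26 (adjusted p = 0.0122) was not called without proximal replicate 2 (-0.76). Distal Adam12 rose by 0.91 ± 0.26 from 12 to 14 days (adjusted p = 0.0151), a call that was lost without distal 12 day replicate 1 (0.81) or 4 (0.76) or distal 14 day replicate 2 (0.81). It then fell by 2.51 on the log2 scale from 14 to 21 days (adjusted p = 3.3e-07), the largest fall among the members in that comparison. Adam19 (chromosome 11, 46055992 to 46147343, plus strand) was at 194, 237, 278 and 224 against 444, 459, 390 and 581 on day 12 and at 222, 222, 209 and 175 against 341, 250, 278 and 265 on day 21. Neither pair of groups overlapped. Its differences were -0.9998 ± 0.12 (adjusted p = 8.85e-06) and -0.45 ± 0.12 (adjusted p = 0.0162). The day 21 call ended without distal replicate 4 (-0.37) or proximal replicate 1 (-0.36). On day 14 distal Adam19 was at 441, 394, 402 and 347 and proximal at 456, 409, 417 and 464, with overlap.

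Adam9, a broadly expressed sheddase (chromosome 8, 24949611 to 25016927, minus strand), was called higher distally on day 21 and on neither earlier day. Its values there were 2323, 2336, 2280 and 2191 against 1301, 1407, 1305 and 1343, far apart, with a difference of 0.77 ± 0.08 (adjusted p = 4.36e-06). On day 12 distal Adam9 was at 1749 to 2442 and proximal Adam9 at 1641 to 2053, overlapping, and on day 14 at 2333 to 2424 and 1731 to 2204, without overlap. The differences of 0.19 ± 0.08 and 0.26 ± 0.08 missed the threshold. The former passed it without distal 12 day replicate 1 (0.26) or proximal replicate 2 (0.26), and the latter without proximal 14 day replicate 4 (0.32). Between levels, the 12 to 21 day changes of Adam9 differed by 0.58 ± 0.12 (adjusted p = 0.00229). Adam15 was 0.22 ± 0.07 higher distally on day 21 (adjusted p = 0.0344), a call lost in 7 of 15 alternatives. It was 0.07 with table totals and 0.17 to 0.22 in the other losses, which were a fit of the 2 groups alone and leaving out distal replicate 1, 3 or 4 or proximal replicate 1 or 3. Of its exon bases 20.6% are shared with an opposite-strand gene at 12 to 42 in these libraries. Adam33 was low, at 19, 26, 23 and 27 distally and 32, 75, 96 and 47 proximally on day 12. The groups did not overlap and differed by -1.25 ± 0.38 (adjusted p = 0.0236), but the call ended without distal replicate 1 (-1.15) or proximal replicate 2 (-1.13) or 3 (-1.01). Without proximal replicate 1 the difference was -1.53.

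Of the 3 ADAMs that lack a protease site, Adam22, a receptor for LGI proteins known from neurons and Schwann cells (chromosome 5, 8072352 to 8368160, minus strand), was higher distally on days 14 and 21. On day 12 it stood at 104, 139, 134 and 112 distally and 142, 150, 168 and 141 proximally, a difference of -0.30 ± 0.14 that was not called although the groups did not overlap. It was at 268, 310, 249 and 226 against 158, 144, 201 and 177 on day 14, a difference of 0.63 ± 0.14 (adjusted p = 0.0134). By day 21 it was at 268, 198, 240 and 229 against 146, 103, 97 and 116, a difference of 1.02 ± 0.14 (adjusted p = 4.68e-05). The groups were separate on all 3 days, with distal Adam22 below on day 12 and above on days 14 and 21. The day 14 call ended without distal replicate 2 (0.55) or in a fit of the 2 groups alone (adjusted p = 0.0518). Its 12 to 21 day changes at the 2 levels differed by 1.32 ± 0.20 (adjusted p = 0.000121). Adam23 and Adam11 were not called between levels. Adam1a, at 33 to 61 in the libraries, was called in no comparison. In GENCODE vM21 it shares 63.7% of its 7508 exon bases with other genes. Its deposited length is 3496 bases, so the share among the counted bases is unknown.

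All 3 procollagen N-propeptidase genes, whose enzymes cut the amino-terminal end off fibrillar procollagens, fell distally from 14 to 21 days, by 0.96 to 0.99 on the log2 scale. In that comparison 21.5% of all genes fell. Adamts2 (chromosome 11, 50602084 to 50807573, plus strand), the most abundant ADAMTS per kb, was at 1972, 2234, 2562 and 2315 distally and 4133, 3451, 4079 and 3519 proximally on day 12. The groups did not overlap and differed by -0.74 ± 0.10 (adjusted p = 1.34e-05). On day 14 distal Adamts2 had come up to 4474, 4026, 3948 and 4280, beside proximal values of 3670, 3547, 4171 and 3655, and the difference of 0.15 ± 0.10 was not called. On day 21 it was at 2326, 2109, 1845 and 2378 against 1894, 1483, 1471 and 1596, overlapping at 1845 and 1894, with a difference of 0.43 ± 0.10 (adjusted p = 0.00449). From 12 to 21 days Adamts2 fell by 1.24 proximally and differed by -0.07 ± 0.10 distally, and the difference between these changes was 1.17 ± 0.14 (adjusted p = 1.19e-05). Adamts14 was lower distally on day 12, at 153, 94, 108 and 162 against 271, 157, 186 and 206, and on day 21, at 77, 66, 136 and 79 against 132, 169, 132 and 158. Both pairs of groups overlapped, and the differences were -0.67 ± 0.22 (adjusted p = 0.0344) and -0.77 ± 0.22 (adjusted p = 0.0201). The day 12 call was lost in 6 of 15 alternatives, namely without distal replicate 2 or 3, proximal replicate 1, 3 or 4, and in a fit of the 2 groups alone (-0.53 to -0.71). The day 21 call ended without distal replicate 1 (-0.71) or 2 (-0.64) or proximal replicate 2 (-0.70). Adamts3 was not called between levels and fell from 12 to 21 days at both.

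The 2 genes whose enzymes cut cartilage oligomeric matrix protein were both lower distally on day 12, where 11% of all genes were. Adamts12 (chromosome 15, 11064790 to 11349231, plus strand) was at 361, 408, 537 and 352 distally and 1027, 888, 1077 and 1160 proximally, widely separated, with a difference of -1.34 ± 0.21 (adjusted p = 0.000119). On day 14 it was at 609, 1158, 1036 and 929 against 885, 804, 1191 and 817, and the difference was -0.01 ± 0.21. On day 21 the values were 412, 304, 513 and 371 against 270, 322, 177 and 345, overlapping, and the difference of 0.54 ± 0.21 was called only when distal replicate 2 was left out (0.66). Adamts12 fell by 1.93 on the log2 scale from 12 to 21 days proximally and differed by -0.06 ± 0.21 distally, the largest level difference in that change among the members, 1.88 ± 0.30 (adjusted p = 0.000246). Adamts7 (chromosome 9, 90163069 to 90208071, plus strand) was at 155, 94, 155 and 140 against 212, 216, 198 and 193 on day 12 and at 87, 67, 71 and 74 against 131, 114, 94 and 94 on day 21. The groups did not overlap on either day, and the differences were -0.61 ± 0.15 (adjusted p = 0.0055) and -0.52 ± 0.15 (adjusted p = 0.0187). Without distal replicate 2 (-0.47) or proximal replicate 1 (-0.43) the day 21 call ended.

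Adamts6 and Adamts10, whose enzymes act on fibrillin microfibrils and cell adhesions, were lower distally on day 12. Adamts6 (chromosome 13, 104287835 to 104496695, plus strand) was at 125, 94, 106 and 136 against 243, 265, 353 and 295, without overlap, a difference of -1.32 ± 0.19 (adjusted p = 4.67e-05). It was at 255, 214, 244 and 175 against 192, 220, 237 and 256 on day 14 and at 126, 89, 127 and 97 against 100, 117, 141 and 66 on day 21, overlapping on both days. Its 12 to 21 day change differed between levels by 1.40 ± 0.27 (adjusted p = 0.00124). Adamts10 differed by -0.73 ± 0.21 on day 12 (adjusted p = 0.0153), which was not called when distal replicate 1 (-0.54) or proximal replicate 3 (-0.55) was left out. Adamts18 (chromosome 8, 113697126 to 113848738, minus strand) went from 10, 42, 61 and 16 in the distal 12 day libraries to 40, 153, 129 and 89 on day 14 and back to 48, 30, 12 and 16 on day 21. The day 12 and day 14 values overlapped. The rise of 1.80 ± 0.54 (adjusted p = 0.0212) was not called without distal 12 day replicate 1 (1.38) or 4 (1.59), without distal 14 day replicate 2 (1.56) or 3 (1.64), or in a fit of the 2 groups alone (adjusted p = 0.0597). The following fall was by 1.95 (adjusted p = 0.00726). Adamts17 was not called between levels on any day.

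**Figure D3:**
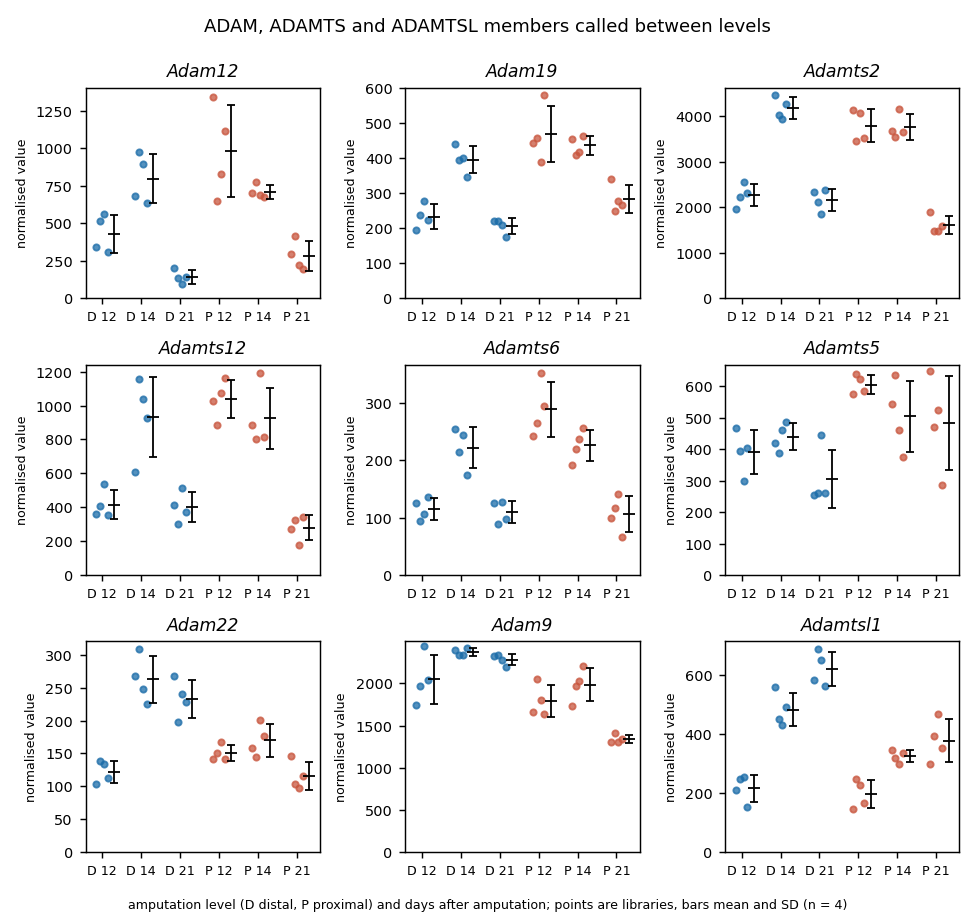
Normalised values of 9 ADAM, ADAMTS and ADAMTSL genes in each of the 24 libraries (points; D distal in blue, P proximal in red, by day), with the mean and SD of 4 libraries. On day 12 Adam12, Adam19, Adamts2, Adamts12, Adamts6 and Adamts5 are lower in every distal than in every proximal library, and Adam22 and Adamtsl1 on day 21 are higher in every distal library.

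The 7 aggrecan- and versican-cleaving ADAMTS genes gave 1 lower call on day 12, 0 on day 14 and 3 lower calls on day 21, with 0 higher on each day. On those days 11%, 2.32% and 9.43% of all genes were lower, and 9.25%, 3.06% and 8.22% higher. Adamts5 (chromosome 16, 85856173 to 85901828, minus strand), the main aggrecanase of mouse cartilage, lies beside Adamts1 on that chromosome (85793827 to 85803113, minus strand). On day 12 it was at 467, 393, 299 and 403 distally and 574, 639, 623 and 584 proximally, without overlap, a difference of -0.65 ± 0.21 (adjusted p = 0.0302). This call ended without distal replicate 2 (-0.66) or 3 (-0.52) or proximal replicate 2 (-0.62), 3 (-0.63) or 4 (-0.66). On day 14 the values, 421, 389, 462 and 485 against 545, 637, 462 and 374, overlapped. On day 21 they were 254, 262, 445 and 261 against 647, 472, 523 and 287, and the difference of -0.64 ± 0.21 (adjusted p = 0.0363) was lost in 8 of 15 alternatives (-0.48 to -0.64). Those were the fit of the 2 groups alone, median-ratio scaling and leaving out distal replicate 1, 2 or 4 or proximal replicate 1, 2 or 3. Adamts1, known to be induced by inflammation, was at 1981, 2188, 1766 and 1540 against 1167, 1211, 1239 and 1282 on day 12. These groups did not overlap, but the difference of 0.60 ± 0.22 missed the threshold (adjusted p = 0.0561).

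Adamts15 (chromosome 9, 30899155 to 30922452, minus strand) and Adamts20 (chromosome 15, 94270163 to 94465418, minus strand) were lower distally on day 21. Adamts15 was at 41, 54, 40 and 35 against 88, 81, 77 and 60, without overlap, a difference of -0.84 ± 0.27 (adjusted p = 0.0381). The call ended without distal replicate 1, 3 or 4 or proximal replicate 1, 2 or 3 (-0.75 to -0.83). On day 12 Adamts15 was at 50, 80, 93 and 62 against 50, 126, 132 and 135. The proximal value of 50 was in the library that stood apart, and the difference of -0.56 ± 0.27 became -0.91 and was called without it (adjusted p = 0.00901). Adamts20 stood at 12, 6, 7 and 12 distally and 17, 44, 32 and 24 proximally on day 21, without overlap and among the lowest values of the members, with a difference of -1.54 ± 0.33 (adjusted p = 0.00361). On the earlier days distal Adamts20 was at 11 to 23 and proximal Adamts20 at 11 to 42, and neither difference was called. Adamts4, Adamts8 and Adamts9 were not called between levels. Adamts4 fell from 12 to 21 days at both levels, by 1.19 distally (adjusted p = 0.0017) and 1.30 proximally (adjusted p = 0.000605). Of 4 chondrocyte markers 2, Acan and Col2a1, were lower and 1, Sox9, was higher distally on day 12. The 4 summed to 2091 to 3255 against 3488 to 8953. The Col2a1 call (adjusted p = 0.0338) ended without distal replicate 1, 2 or 4 or proximal replicate 2 or 4. On day 21, 0 of 4 were called and the sums were 1604 to 5164 against 1429 to 2676. Their part in the aggrecanase results was not tested.

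Of the 5 ADAMTS-like genes, Adamtsl1, a matrix protein gene (chromosome 4, 85514172 to 86428385, plus strand), was the only one called between levels and the only one called higher with time. Its distal values were 209, 246, 254 and 152 on day 12, 558, 451, 431 and 490 on day 14, and 582, 687, 651 and 562 on day 21. The proximal values were 146, 247, 228 and 166, then 347, 317, 299 and 336, then 298, 394, 468 and 351. Every day 14 and day 21 value was above every day 12 value of its level, and from day 14 each distal library was above each proximal one of that day. Adamtsl1 rose from 12 to 21 days by 1.55 ± 0.17 distally (adjusted p = 2.55e-06) and by 0.95 ± 0.17 proximally (adjusted p = 0.000186), and the difference between these rises was not called (adjusted p = 0.0942; called without proximal 12 day replicate 1, at 0.73). The level difference was 0.57 ± 0.17 on day 14 (adjusted p = 0.0487) and 0.73 ± 0.17 on day 21 (adjusted p = 0.0048). The day 14 call was lost in 9 of 15 alternatives, with table totals and without any of the 8 libraries (0.49 to 0.62). Adamtsl2, Adamtsl3, Adamtsl4 and Adamtsl5 were called lower at 21 than at 12 days proximally, where 17% of all genes were. For Adamtsl5 (-0.49) that call was lost in 6 of 15 alternatives, among them leaving out proximal 12 day replicate 2 (-0.40), and for Adamtsl4 (-0.41) in 3, among them leaving out the same library (-0.30). Adamtsl2 and Adamtsl4 also fell distally, by 1.32 (adjusted p = 0.0132) and by 0.52 (adjusted p = 0.00233) on the log2 scale. The former call ended without distal 12 day replicate 3 (-1.07) or distal 21 day replicate 1 (-1.04).

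Markers of several cell types fell with the members from 14 to 21 days, and those of keratinocytes did not. The fibroblast markers Col1a1, Pdgfra, Dcn and Lum summed to 124513 to 253314 in the distal 12 day libraries and 205899 to 331976 in the proximal ones, with 1 of 4, Pdgfra, called lower. Lum was called higher distally on days 14 and 21. On day 14 the sums were 278442 to 533442 distally and 290043 to 467712 proximally, and on day 21 they were 90128 to 131307 and 66213 to 106904. Col1a1 made up most of these sums, at 243732 to 497036 in the distal 14 day libraries. All 4 fibroblast markers fell distally and 3 of 4 fell proximally from 14 to 21 days, and 3 of 4 rose distally from 12 to 14 days. From 14 to 21 days 4 of 4 osteoblast markers fell distally, with a median of -3.12, and 3 of 4 proximally, with a median of -2.12. Endothelial markers fell in 4 of 4 at both levels, with medians of -1.11 and -1.05. The sums of the osteoblast markers were 11350 to 28946 distally and 5567 to 16227 proximally on day 14, and 884 to 2403 and 1034 to 2893 on day 21. Endothelial sums were 2809 to 4677 and 3865 to 5315 on day 14, and 1351 to 2332 and 1832 to 2824 on day 21. Keratinocyte markers from 14 to 21 days had a median of 0.10 distally, with 1 of 4, Krt10, called higher, and of 0.24 proximally, with 0 called. Nail matrix markers summed to 45214 to 79565 distally and 3732 to 18993 proximally on day 12, with 4 of 4 higher. From 14 to 21 days 0 of these 4 were called distally, with a median of 0.37, and 2 were lower proximally, with a median of -1.03. The part of these cell types in the member results was not tested.

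Genes around the enzymes were taken from lists of their partners and substrates, which were drawn up with earlier results of these data known. The fibrillin network, to which ADAMTS-like proteins and ADAMTS6 and ADAMTS10 bind, had 8 of 12 measured genes lower and 1 higher distally on day 12, where 11% of all genes were lower and 9.25% higher, with a median of -1.09 against -0.03 over all genes. On day 21, 2 of the 12 were higher and 0 lower, against 8.22% and 9.43% of all genes, and the median was 0.10. The day 21 call of Papln (0.48, adjusted p = 0.0364) ended without distal replicate 2, 3 or 4 or proximal replicate 1, 2 or 3. Fbn2, a fibrillin of developing tissue, was at 495, 510, 358 and 377 against 1921, 2395, 1507 and 2411 on day 12, a difference of -2.23 ± 0.28 (adjusted p = 1.01e-05). Eln, also lower on day 12 (-1.35, adjusted p = 0.0149), was not called without distal replicate 3 (-1.185) or proximal replicate 2 (-1.14). Without proximal replicate 1 the Eln difference was -1.58. Ltbp1, a latent TGF-beta binding protein, was the 1 higher gene on day 12, by 0.43 ± 0.08 (adjusted p = 0.000941). For 9 of 12 the 12 to 21 day change was more positive distally and for 0 more negative, against 7.42% of all genes each way. Of 5 procollagen genes 3 were lower and 0 higher on day 12, against the same 11% and 9.25%, among them Col3a1 with a difference of -1.29 ± 0.19 (adjusted p = 6.39e-05). Col2a1, another of the 3, was at 24 to 48 against 81 to 500, a difference of -2.25 (adjusted p = 0.0338), or -2.57 without proximal replicate 1. Its call ended without distal replicate 1, 2 or 4 or proximal replicate 2 or 4 (-1.70 to -2.31). On days 14 and 21, 0 of these 5 were called.

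The list of proteoglycan substrates, link proteins and cartilage oligomeric matrix protein (Comp) gave 2 lower calls, Acan and Comp, and 0 higher of 5 on day 12. Over all genes 11% were lower and 9.25% higher. Acan, the gene of aggrecan, was at 1207, 2085, 1344 and 912 distally and 7898, 4605, 2721 and 3031 proximally on day 12, without overlap, a difference of -1.65 ± 0.43 (adjusted p = 0.00879), or -1.34 without proximal replicate 1. Comp differed by -1.65 ± 0.28 (adjusted p = 0.000286). On day 21, 3 of 5 genes of this list were higher distally and 0 lower, against 8.22% and 9.43% of all genes. Hapln1, the cartilage link protein, was at 278, 182, 179 and 174 against 86, 24, 34 and 112 there (1.89 ± 0.44, adjusted p = 0.00559). Vcan, the gene of versican, differed by 0.66 ± 0.11 (adjusted p = 0.000432). For all 5 the change from 12 to 21 days was more positive distally, where 7.42% of all genes were.

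Of 7 measured iRhom and tetraspanin partner genes of the sheddases, 1 was higher and 1 lower on day 12, 0 were called on day 14 and 1 was lower on day 21, where 20.3%, 5.39% and 17.6% of all genes were called. Rhbdf2, an iRhom that carries ADAM17 to the cell surface, was at 826, 982, 1013 and 922 against 1055, 1472, 1212 and 1220 on day 21, without overlap, a difference of -0.40 ± 0.11 (adjusted p = 0.0128), which was not called without distal replicate 1 (-0.34) or proximal replicate 2 (-0.31). Rhbdf1 was the lower gene on day 12, with a difference of -0.28 ± 0.08 (adjusted p = 0.0166) that was not called without distal replicate 2 (-0.24) or proximal replicate 3 (-0.23). Of 6 EGF receptor ligand genes 1 was higher and 1 lower on day 12, again against 20.3% of all genes. Epgn was the higher gene, at 658, 801, 634 and 904 against 328, 89, 109 and 120 (2.40 ± 0.40, adjusted p = 0.000204). Its highest proximal value was in the library that stood apart, without which the difference was 2.81. Ereg differed by -0.86 ± 0.26 (adjusted p = 0.0227) and was not called without distal replicate 1 (-0.64) or proximal replicate 2 (-0.79) or 4 (-0.74). Of 21 other shed substrates 4 were higher and 1 lower on day 12, where 9.25% of all genes were higher and 11% lower. Sdc1 was among the higher (0.25, adjusted p = 0.049), and its call ended without distal replicate 1, 2 or 4 or any proximal replicate. On day 21, 2 of the 21 were higher and 7 lower, where 8.22% and 9.43% of all genes were. Leaving out single libraries ended the higher calls of Cx3cl1 and Efna5 and the lower calls of Cxcl16, Jag1, Tnfrsf1a and Cdh1. Tnfsf11, the gene of RANKL, was among the higher on day 12, at 441, 214, 544 and 401 against 197, 58, 126 and 105 (1.76 ± 0.42, adjusted p = 0.00506), or 2.04 without proximal replicate 1. Il6ra and Tnfrsf1b, receptors shed by ADAM17, differed by -0.48 ± 0.12 (adjusted p = 0.00886) and -0.59 ± 0.13 (adjusted p = 0.0048) on day 21.

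Among 8 convertases and other inhibitors, 2 were higher and 1 lower on day 12, against 20.3% of all genes called. The lower gene, Pcsk7 (-0.21, adjusted p = 0.0188), was not called without proximal replicate 2 or 3. On day 14, 2 were higher and 0 lower, against 5.39% called. Of these, Pcsk6 (0.56, adjusted p = 0.0395) was not called without distal replicate 2 or 3 or proximal replicate 1, 2 or 3. Furin, which removes the prodomain of most ADAM and ADAMTS enzymes, was called in no comparison of levels, with differences of -0.01 ± 0.12, -0.03 ± 0.12 and -0.14 ± 0.12. Pcsk5, another convertase, was higher by 0.36 ± 0.12 on day 12 (adjusted p = 0.0357) and by 0.68 ± 0.12 on day 14 (adjusted p = 0.0044). The day 12 call ended without distal replicate 1 (0.26) or 3 (0.32) or proximal replicate 1 (0.35), 3 (0.34) or 4 (0.37). Spock1, a testican, was at 181, 220, 241 and 341 against 153, 21, 43 and 15 on day 12 (2.61 ± 0.49, adjusted p = 0.000669). The value of 153 was in the proximal library that stood apart, and without it the difference was 3.27 ± 0.38.

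**Figure D4:**
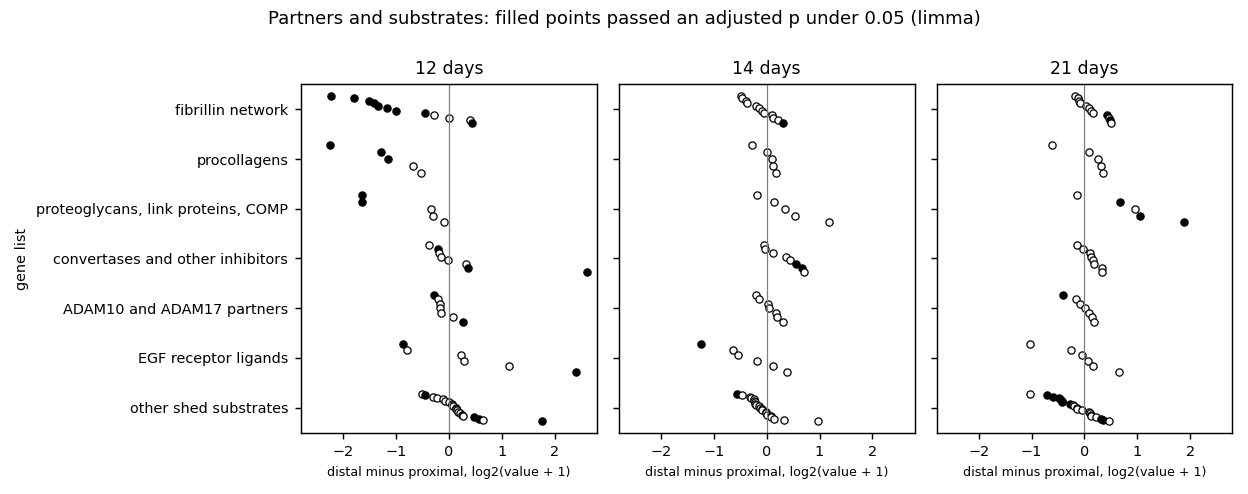
Distal minus proximal differences on the log2(value + 1) scale (horizontal axis) of the measured genes in 7 lists of partners and substrates (rows), for each day. Each point is a gene and filled points had an adjusted p under 0.05: 8 of 12 fibrillin network genes are filled on the lower side on day 12, and 3 of 5 proteoglycan list genes on the higher side on day 21.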

How the data were processed

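RNA-seq of 24 digit tip libraries was deposited as 1 table of values and gene lengths for 15055 genes. Per the submitters' processing notes the authors used cutadapt, STAR 2.5.4b and featureCounts 1.6.3 (Subread) with build mm10. The strand setting and the normalization are not given in the sources used here. The deposited values are whole numbers but were handled as a score, not as raw reads. Over 9650 genes with all values above 100, the least-spread direction across libraries had a natural-log spread of 0.00424, where Poisson sampling would give 0.0388, so a factor per library appears to have been removed, which can make the p-values too small. Depth is therefore unknown and no counting interval was computed.

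The limma package 3.58.1 (R 4.3.3) fitted 6 group means to log2(value + 1) in all 24 libraries, using eBayes with a trend, with 18 residual and 3.91 prior degrees of freedom. Tests are two-sided, with Benjamini-Hochberg adjustment over all genes. The scale understates changes of low genes. The fit was tested on simulated data for distal against proximal at 12 days over 15055 genes. In 5 draws with 200 changed genes it recovered 80% of 2-fold and 97.6% of 4-fold changes, and 6% of its calls were false. The simulated noise was normal, independent between genes and libraries, with the spread of each gene, as limma assumes. It did not copy the removed factor per library, so it cannot show whether the p-values are too small. The 6% is therefore not an error rate of the calls in the data.

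The members and lists were chosen with earlier results of these data known. Library values are given for the TIMPs, Adam10, Adam17, members called on at least 2 days, the 3 largest called rises and falls of each level comparison and of the level difference in change, and the largest of each time comparison, 21 members in all. The other members stand in the accounts of their roles, and the library values of Adamts1 were added after they were seen. Partner genes named with values were picked from their lists after the values were seen.

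Alternatives were pseudocounts of 0.5 and 8, a mean value of at least 50, table totals, median-ratio factors, a fit restricted to the groups of a comparison, a block for replicate number, and leaving out single libraries in turn. No 2 libraries were identical. Positions are from GENCODE vM21, in which all 36 members matched by name, and 10 share exon bases with another gene. For 32 members the deposited length equals the exon bases there. For Adam1a, Adamts5, Adamts10 and Adamts12 it does not. Promoters are from RefSeq. A search of the proteins for the zinc-binding motif was not run, because protein sequences were not used here.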

Additional observations from a re-analysis of the deposited data

Results flagged for a closer look

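In 126 groups of 4 libraries of the named members, 7 had 1 library far from the other 3, where chance gives about 1 in 20. Timp3 was at 2524 in proximal 12 day replicate 3 (others 1748 to 1797), and Adamts20 at 42 in the same library (others 13 to 16). Adamts15 was at 50 in proximal 12 day replicate 1 (others 126 to 135), the library that stood apart over all genes. Adam10 was at 1218 in distal 12 day replicate 4 (others 1431 to 1467). Adam17 was at 1161 in distal 14 day replicate 3 (others 1027 to 1046). Adam8 was at 460 in proximal 14 day replicate 4 (others 259 to 272). Adamts5 was at 445 in distal 21 day replicate 3 (others 254 to 262).

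For 9 members the change from 12 to 21 days differed between distal and proximal amputation by limma's test of the difference itself. The difference was 1.88 for Adamts12, 1.40 for Adamts6, 1.32 for Adam22, 1.20 for Timp2, 1.17 for Adamts2, 0.58 for Adam9, 0.55 for Adam19 and 0.30 for Adam15. For Adam8 it was -1.35. The calls of Adam15 (adjusted p = 0.0415) and Adam19 (adjusted p = 0.0372) were lost in 12 and 13 of 23 alternatives.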

How the results depend on the processing

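Of 130 calls of members, 89 held in every alternative run and 41 were lost in at least 1. No member's call reversed, and 7 uncalled results of named members were called in at least 1 alternative. In a fit of only the compared groups, the count at 14 days between levels was 1, when 1.73% of all genes were called. When each library was left out in turn, the counts ran from 9 to 14 (12 days), 0 to 3 (14 days) and 10 to 14 (21 days) between levels. They ran from 9 to 15, 19 to 23 and 9 to 14 for distal 14 against 12, 21 against 14 and 21 against 12 days. The proximal counts in that order were 2 to 3, 19 to 22 and 16 to 20, and 7 to 10 changes differed between levels. Over all genes the share called then ran from 15.6% to 18.1%, 1.84% to 6.31% and 12.1% to 16.1% between levels. It ran from 14.7% to 18.1%, 29.6% to 32.6% and 19.4% to 21.3% distally. Proximally it ran from 11% to 14.5%, 22.6% to 27.9% and 24% to 26.5%, and from 11.5% to 14.5% for the changes. The cause of the lost calls was not tested.

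Deviations of same-numbered libraries correlated between -0.194 and 0.702, and in 0 comparisons did every pair exceed 0.1, so the numbers were not taken to pair libraries. The highest value was for replicate 3 of proximal 14 against 12 days, where 3 of 4 pairs exceeded 0.1. Over the 9 comparisons of 2 groups, 18 of 72 libraries correlated best with their own number. With the replicate block the counts between levels were 13, 2 and 15, and 7 for the change. Over all genes 20.1%, 4.65%, 17.6% and 14.7% were called with the block. Adam8 at 12 days (adjusted p = 0.0536) and Timp1 at 14 days (adjusted p = 0.0591) were then not called. Depth being unknown, precision rests on 4 libraries a group.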
